A study of Mus musculus with 16 samples.

Results

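The 10 genes described here are Lin28a, Lin28b, Trim71, Hmga2, Igf2bp1, Igf2bp2, Igf2bp3, Myc, Mycn and Plag1, a group often called oncofetal because its members are abundant in the embryo, fall in most adult tissues and return in many tumours. The rule that picks them uses gene names and no expression value, but they were chosen with earlier results of these data known. They are 10 of the 27807 genes in the table, and all 10 passed the filter for testing, a mean of at least 10 normalised counts over the 16 libraries, which left 16124 genes.

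The study asked what loss of TAF4, a core subunit of the general transcription factor TFIID, does to gene expression as mouse ES cells differentiate towards neurons. Poly-A RNA was sequenced in 8 groups of 2 libraries, WT (labelled Taf4+/+) and Taf4a-/- (labelled Taf4-/-), each at 4 stages. The stages were ES cells, embryoid bodies before retinoic acid was given (EB4), embryoid bodies on the first day of retinoic acid (EB5) and embryoid bodies later in the retinoic acid treatment (EB8), the last of which the labels call neural precursor cells. Each genotype was represented by 2 independent ES lines. All lines came from blastocysts of Taf4a heterozygous crosses and were kept with LIF on a layer of fibroblast feeder cells before embryoid bodies were formed. The mutant allele lacks exons 11 and 12 of Taf4a and is present in every mutant cell at all 4 stages, ES cells included. Taf4b, the related gene, was intact in all groups. Values are read counts per gene divided by a size factor per library, called normalised counts below. P-values measure only the spread between these libraries.

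LIN28A and LIN28B are RNA-binding proteins that bind the precursor of the let-7 microRNAs and block its maturation. Mature let-7 in turn represses mRNAs that carry its sites, among them those of both Lin28 genes, of Trim71, a ubiquitin ligase and RNA-binding protein of stem and neural progenitor cells, of Hmga2, a chromatin protein that bends AT-rich DNA, and of the Igf2bp family, whose proteins bind and stabilise mRNAs such as Igf2 and Myc. MYC and MYCN are transcription factors of growth and proliferation, and PLAG1 is a zinc finger factor known for activating Igf2. In ES cells LIN28A is abundant, and in neural tissue the fall of LIN28 and the rise of let-7 mark the passage from early to later progenitors.

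Libraries held 22442118 to 40711826 reads in genes, with at least 32631020 in each ES library and at most 27685306 in each EB library. The smallest number of reads behind any value of a member was 197, for which counting error alone has an SD of 7.12%. Taf4a itself was at 1590.9 to 1959.6 normalised counts in WT and 1972.8 to 2400.0 in Taf4a-/- libraries, so a count over the whole gene does not check the genotype labels. Several libraries stood apart from the others of their genotype. WT ES replicate 2 summed to 20.7 normalised counts over 4 Y-linked genes, against 4615 in WT ES replicate 1, 1470 to 2403 in the 6 WT EB libraries and 22.3 to 168 in the 8 Taf4a-/- libraries. Member and list results that use the WT ES libraries are therefore followed by the value without it. At the EB stages the WT libraries had Y-linked reads and the Taf4a-/- libraries had few. Genotype and this difference between the lines cannot be told apart there. The level of X-linked genes was 0.36 to 0.55 (log2, against the average library) in the Taf4a-/- replicate 2 libraries and 0.47 in WT ES replicate 2. In the remaining libraries it was -0.26 to -0.15. WT EB4, EB5 and EB8 replicate 1 had a raised level of chromosome 8 genes, 0.41, 0.39 and 0.38 (log2, against the average library), against -0.16 to 0.03 in the other 13 libraries, WT ES replicate 1 included at -0.15. No member lies on chromosome 8. The WT changes from ES to the EB stages thus compare libraries that differed in these levels. Stage and differences between lines cannot be told apart there. The label of neural precursor cells at EB8 was set beside markers. In WT at EB8 the summed level of 7 neural progenitor markers was 30083 to 34824 normalised counts, against 3040.0 to 9528.5 in ES cells. That of 4 neuron markers was 13824 to 17755, against 7936.7 to 8942.3. Olig2 (173.3 and 289.0, against 2010.6 and 668.9) and Stmn2 (1468.1 and 1798.9, against 5302.6 and 6490.7) were lower at EB8. All other markers of these lists were higher at EB8 than in ES cells in WT. In Taf4a-/- at EB8 the sums were 4972.5 to 5307.0 and 1186.9 to 1447.7, with Dbx1 under 1 in replicate 1 and all 7 and all 4 markers lower in both libraries than in both WT libraries, while 9 pluripotency markers summed to 32259 to 33248, against 5462.7 to 7155.2 in WT, with 7 of 9 higher. The sums of 8 fibroblast markers, which mark feeder cells, were 1054.9 to 2670.1 in WT ES and 213.35 to 500.3 in Taf4a-/- ES cells, with 5 of 8 lower and Lum under 1 in a library. The sums of 6 visceral endoderm markers were 590.8 to 671.02 in WT and 130.83 to 234.35 in Taf4a-/- cells at EB8, with 5 of 6 lower and Apoa1 and Ttr under 1 in a library. The part of these differences in cell make-up in the results below was not tested, and in bulk RNA fewer cells of a type and less RNA per cell cannot be told apart.

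The sequence that ties most of these genes together is the let-7 site. The mature let-7 microRNAs are shown because they share the seed, bases 2 to 8 of the microRNA, here in capitals. All 9 mature members listed by RefSeq (GRCm38.p6 table) carry the same seed, and 3 of them are printed 5′ to 3′.
let-7a: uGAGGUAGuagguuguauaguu
let-7g: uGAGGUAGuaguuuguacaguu
miR-98: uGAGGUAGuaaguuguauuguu
Their site in an mRNA is the reverse complement of the seed, CTACCTC, which was searched on the transcript strand of the longest annotated 3′UTR of each gene (GENCODE M1, NCBI37 build). The motif was present in 7 of the 10 members, against 10.6% of 14409 genes with an annotated 3′UTR of any length. These 7 are the genes named above as known let-7 targets, so the contrast follows from the choice of members. Lin28b, Hmga2 and Igf2bp1 had 4 matches each, Lin28a and Trim71 had 2 each, and Igf2bp2 and Igf2bp3 had 1 each. No match was found in the 3′UTRs of Myc (466 bases), Mycn (910 bases) and Plag1 (2694 bases), which says only that these letters are not in those windows. The 3′UTRs of the 7 genes ran from 1370 bases in Trim71 to 6337 bases in Igf2bp1, and among genes with a 3′UTR of like length (within 20%) the share with a match was 11.7% for Trim71 and 33.0% for Igf2bp1. A match is a description of the sequence and not a measured binding site.

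The first match of each of the 7 genes is printed below with its flanks, all on the minus strand of NCBI37, read 5′ to 3′ along the mRNA with the let-7 match in capitals.
Lin28a, chr4:133561097-133561126: gcacagcctgttgaaCTACCTCatttttgc
Lin28b, chr10:45100821-45100850: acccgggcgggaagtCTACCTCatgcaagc
Trim71, chr9:114421583-114421612: aacattgcctaagtcCTACCTCagcttaaa
Hmga2, chr10:119801273-119801302: gccgacattcaatttCTACCTCagcatcag
Igf2bp1, chr11:95823085-95823114: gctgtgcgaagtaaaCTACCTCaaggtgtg
Igf2bp2, chr16:22059539-22059568: acacacaaataaaagCTACCTCaggtgttt
Igf2bp3, chr6:49036779-49036808: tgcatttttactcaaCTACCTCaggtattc
Poly-A libraries of this kind do not capture mature microRNAs. The 7 let-7 loci in the table had 0 to 10 reads each in a library.

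The members covered a wide range of levels. Compared per kilobase of annotated exon, the median over the 16 libraries was 3482 normalised counts per kilobase for Lin28a, 1814 for Igf2bp1, 978 for Mycn, 788 for Trim71, 685 for Igf2bp2 and 624 for Igf2bp3. Hmga2 (230), Lin28b (224) and Myc (188) formed a lower group, and Plag1 was lowest at 59.4. Ranges over the libraries overlapped between neighbours in this order, from 573 to 6560 for Lin28a and from 1271 to 2405 for Igf2bp1, for example. Lin28a had the highest median and Igf2bp1 the narrowest relative range.

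**Figure D1:**
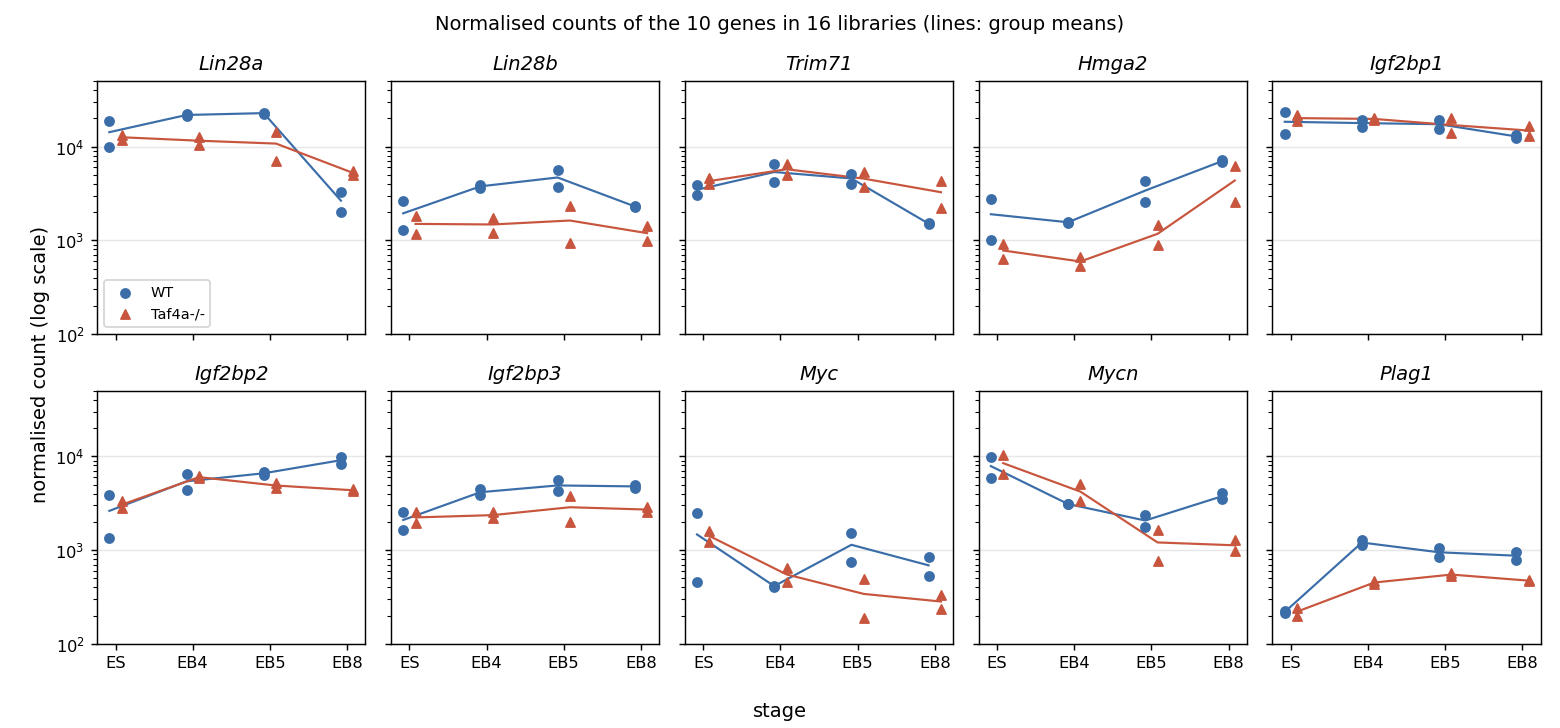
Normalised counts of the 10 members in all 16 libraries, on a shared log axis, by stage, with WT and Taf4a-/- libraries as separate points and lines through the group means. Lin28a and Trim71 fell most between EB5 and EB8 in WT, Hmga2 and Igf2bp2 rose from ES to EB8 in WT, and Mycn ended lower in Taf4a-/- (972.6 and 1277.7) than in WT (3503.2 and 4026.5).

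Between genotypes, the members split at EB8 into a pair that was higher without TAF4, Lin28a and Trim71, and a set that was lower, Mycn, Igf2bp2 and Plag1. Plag1 was also lower at EB4 and EB5, and Lin28b at EB5. In ES cells no member was called. The call is an adjusted p under 0.05 in a limma fit of log2(normalised count + 1), with Benjamini-Hochberg adjustment over all 16124 genes, so log2 changes are on that scale.

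In ES cells the count was 0 of 10 members by limma, with 1, Hmga2, at an unadjusted p under 0.05, and 0 by edgeR and DESeq2. Over all 16124 genes limma called 0.00% higher and 0.00% lower, edgeR called 0, and DESeq2 called 469, of which 100 were higher and 369 lower. Hmga2 had 2782.4 and 1014.9 normalised counts in the 2 WT ES libraries and 922.3 and 636.1 in the 2 Taf4a-/- libraries, a log2 change of -1.13 (SE 0.47, adjusted p = 0.387) that was -1.86 without WT ES replicate 2 (adjusted p = 0.238) and -0.41 without WT ES replicate 1.

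At EB4, 1 of 10 members was called, Plag1, which was lower, where 2.75% of all genes were called higher and 3.37% lower. At EB5, 2 of 10 were called, Lin28b and Plag1, both lower, with 2.17% of all genes higher and 2.17% lower. At EB8, 2 of 10 members were called higher and 3 lower, with 10.4% of all genes higher and 12.5% lower. These shares of all genes are those of limma. DESeq2 called 3, 5 and 6 members at EB4, EB5 and EB8, where it called 2077, 1719 and 4626 of all 16124 genes. The edgeR counts were 1, 1 and 3 members, and 811, 603 and 3546 of all genes. With so few members, shares of the list next to these backgrounds describe the 10 genes only.

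**Figure D2:**
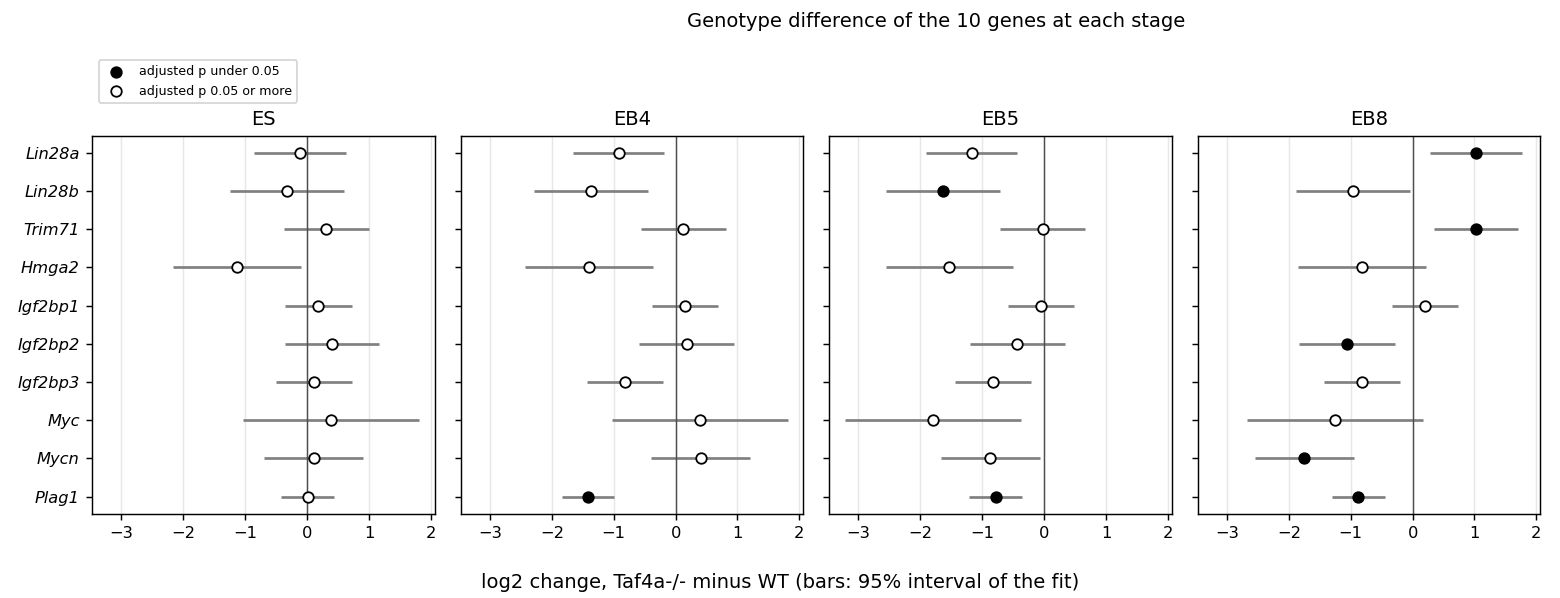
Log2 change of each member, Taf4a-/- minus WT, in panels for ES, EB4, EB5 and EB8, with 95% intervals from the limma fit and filled symbols for an adjusted p under 0.05. At EB8, Lin28a (1.02) and Trim71 (1.03) lie above 0 and Mycn (-1.75), Igf2bp2 (-1.06) and Plag1 (-0.88) below it.

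Along differentiation, WT cells lost Lin28a, Trim71 and Mycn and gained Hmga2, Igf2bp2, Igf2bp3 and Plag1 between ES and EB8, so 7 of 10 members were called. Without WT ES replicate 2 the count was 9, with Igf2bp1 and Myc added. Of all genes, 24.0% rose and 22.8% fell over this interval in WT. In Taf4a-/- cells 5 of 10 were called between ES and EB8, with Hmga2 and Plag1 higher and Lin28a, Myc and Mycn lower, where 19.7% of all genes rose and 18.0% fell.

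The steps of WT differentiation differed in which members moved. From ES to EB4, Plag1, Igf2bp2 and Igf2bp3 rose and Mycn fell, with 8.98% of all genes higher and 7.57% lower. Without WT ES replicate 2 the 4 members called were Plag1, Igf2bp2, Mycn and Myc. From EB4 to EB5, 0 members were called by limma, 1 (Hmga2) had an unadjusted p under 0.05, and edgeR and DESeq2 called 0. Of all 16124 genes limma called 2.59% higher and 1.14% lower. On the same genes edgeR called 525, and DESeq2 called 682 higher and 412 lower. From EB5 to EB8, Lin28a and Trim71 fell, with 5.82% of all genes higher and 4.62% lower.

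The same steps were tested in Taf4a-/- cells. Plag1 rose from ES to EB4 (2.51% of all genes higher and 0.992% lower), and Mycn fell from EB4 to EB5 (1.82% higher and 0.695% lower). From EB5 to EB8, 0 members were called by limma and by edgeR, 2 (Lin28a and Hmga2) had an unadjusted p under 0.05, and DESeq2 called 1, Hmga2. Of all 16124 genes limma called 0.428% higher and 0.310% lower. On the same genes edgeR called 83, and DESeq2 called 360 higher and 301 lower.

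Whether the genotypes changed by different amounts was tested as an interaction. From ES to EB8 the difference was called for 1 of 10 members, Mycn, with 3.85% of all genes higher and 3.44% lower. Without WT ES replicate 2 the member called was Igf2bp2 instead. From EB5 to EB8 limma and edgeR called 0 members, 2 (Lin28a and Trim71) had an unadjusted p under 0.05 and DESeq2 called 1, Lin28a. Of all 16124 genes limma called 0.0992% higher and 0.682% lower. On the same genes edgeR called 112, and DESeq2 called 134 higher and 354 lower. A member called in 1 genotype and not in the other is therefore not shown to differ between them.

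**Figure D3:**
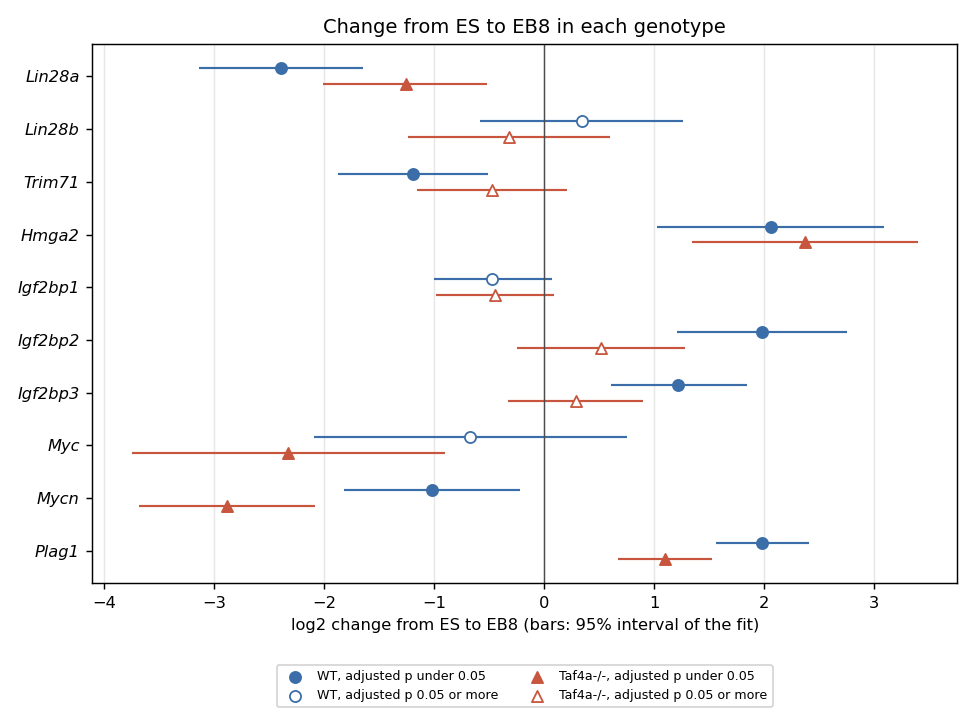
Log2 change of each member from ES to EB8 in WT and in Taf4a-/- cells, with 95% intervals from the limma fit. Lin28a fell in both genotypes (-2.39 and -1.26), Hmga2 rose in both (2.06 and 2.37) and Mycn fell more in Taf4a-/- (-2.88) than in WT (-1.02).

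Lin28a (ENSMUSG00000050966, NCBI37 chr4:133559245-133574756, minus strand, protein coding) had the highest median level per kilobase of the set. In WT it had 18691.2 and 9789.9 normalised counts in ES cells, 22076.2 and 21374.1 at EB4, 22486.9 and 22992.6 at EB5 and 3296.3 and 2007.4 at EB8. In Taf4a-/- the values were 13426.8 and 11714.2 in ES cells, 12695.4 and 10400.6 at EB4, 14450.0 and 7070.0 at EB5 and 5023.2 and 5422.1 at EB8. Both Taf4a-/- libraries were below both WT libraries at EB4 and EB5, and both were above them at EB8.

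The fall of Lin28a in WT lay between EB5 and EB8, and was 8.57-fold by group means from EB5 to EB8 (log2 change -3.14, SE 0.34, adjusted p = 0.000201). In the mutant the ratio of means was 2.06-fold (log2 change -0.95, adjusted p = 0.246), with EB5 replicate 2 closer to the EB8 libraries than to EB5 replicate 1. The difference between the 2 falls was 2.19 (95% interval 1.14 to 3.24) and was not called (adjusted p = 0.0631). Over 12 other analyses its adjusted p was 0.00382 to 0.104, past the threshold in 6. With a library left out the difference was 1.67 to 2.71. Lin28a also fell from ES to EB8 in both WT (-2.39, SE 0.34, adjusted p = 0.000158, and -2.86 without WT ES replicate 2) and Taf4a-/- cells (-1.26, SE 0.34, adjusted p = 0.012), the second call being lost without ES replicate 1 (-1.17) or EB8 replicate 1 (-1.21).

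At EB8, Lin28a was 1.97-fold higher by means in Taf4a-/- cells (log2 change 1.02, SE 0.34, 95% interval 0.28 to 1.76, adjusted p = 0.0483). The call was near the threshold, held in 8 of 12 other analyses (adjusted p 0.0154 to 0.0748) and was lost without WT EB8 replicate 2 (0.66), Taf4a-/- EB8 replicate 1 (1.08) or replicate 2 (0.97). The pluripotency marker sum was also higher in both Taf4a-/- EB8 libraries. It was higher at EB4 (98989 to 123970, against 40489 to 65782 in WT) and EB5 (54099 to 78743, against 16619 to 22932) as well. At those 2 stages Lin28a was lower in both Taf4a-/- libraries. The part of cell make-up in the Lin28a differences was not tested. At EB4 the log2 change of Lin28a was -0.92 (adjusted p = 0.13). At EB5 it was -1.17 (adjusted p = 0.0736, 0.0283 to 0.125 over 12 other analyses, 2 of them past the threshold), with -1.69 and a call without Taf4a-/- EB5 replicate 1 (adjusted p = 0.0292) and -0.65 without replicate 2. The exons of Lin28a overlap those of Gm13061, a lincRNA on the opposite strand at 0.0 to 7.7 normalised counts.

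Lin28b (ENSMUSG00000063804, chr10:45096426-45206201, minus strand, protein coding) is the paralog of Lin28a, and its protein also blocks let-7 maturation. WT libraries had 2605.8 and 1274.9 normalised counts in ES cells, 3900.6 and 3627.6 at EB4, 3748.9 and 5614.7 at EB5 and 2349.1 and 2254.1 at EB8. Taf4a-/- libraries had 1814.7 and 1179.3, 1748.9 and 1203.4, 2312.4 and 940.6, and 978.0 and 1407.2 at the same stages. Both Taf4a-/- libraries lay below both WT libraries at EB4, EB5 and EB8, and the groups overlapped in ES cells.

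The difference was called at EB5, where the WT mean was 2.88-fold higher (log2 change -1.64, SE 0.42, adjusted p = 0.0497). That call held in 7 of 12 other analyses (adjusted p 0.00828 to 0.117) and was lost without WT EB5 replicate 1 (-1.93), WT EB5 replicate 2 (-1.35) or Taf4a-/- EB5 replicate 2 (-0.99). The changes at EB4 (-1.37, adjusted p = 0.0747) and EB8 (-0.97, SE 0.42, adjusted p = 0.118) were not called. In WT the rise from ES to EB4 was not called (1.04, adjusted p = 0.109), but passed without WT ES replicate 1 (1.56, adjusted p = 0.0499) and was 0.53 without WT ES replicate 2.

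The mix of the 2 Lin28 genes was compared per kilobase of exon. Lin28a made up 91.4% to 95.2% of their summed level in the 6 WT libraries from ES to EB5, and 78.4% and 69.7% in WT at EB8. In Taf4a-/- cells it made up 90.9% to 96.3% in all 8 libraries, with 93.0% and 90.9% at EB8. The summed level was 6829.0 and 7179.0 normalised counts per kilobase at EB5 and 1200.0 and 821.4 at EB8 in WT, and 4378.0 and 2121.0 at EB5 and 1541.0 and 1702.0 at EB8 in Taf4a-/- cells. The share was lowest at EB8 in both genotypes, and both WT EB8 libraries were below both Taf4a-/- EB8 libraries.

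**Figure D4:**
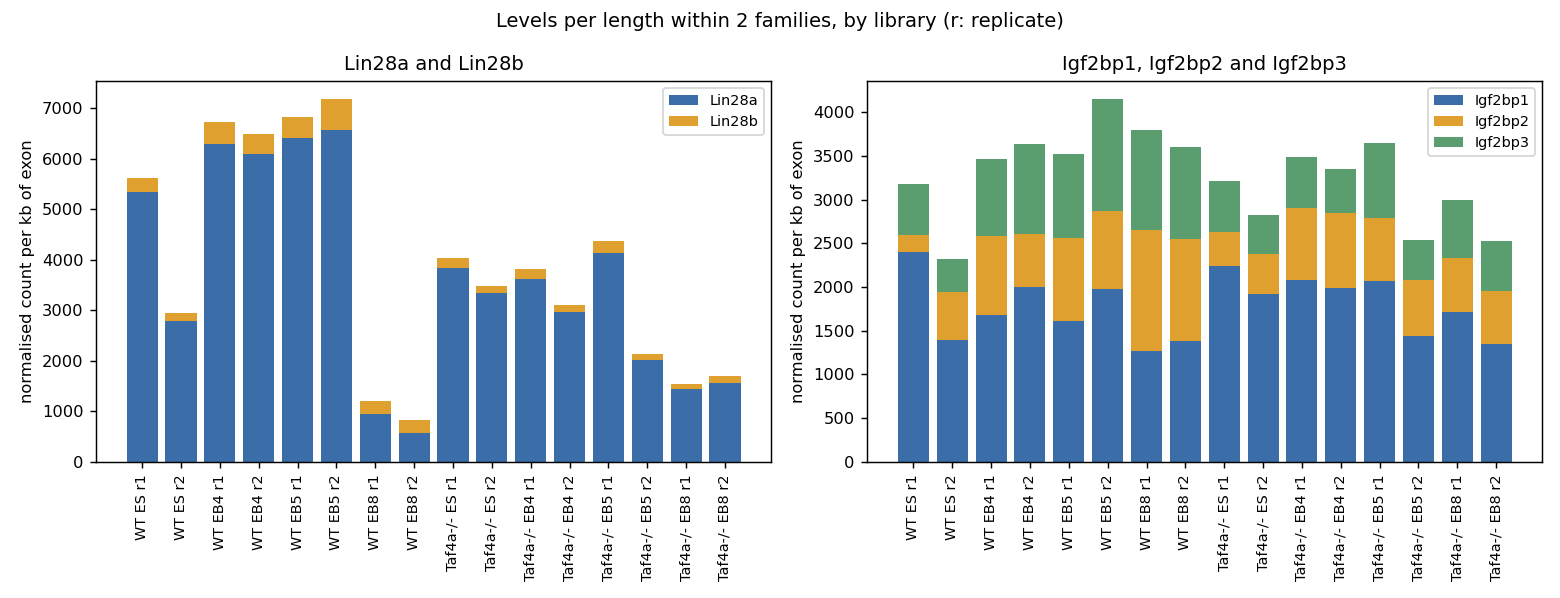
Level per kilobase of exon, in normalised counts per kilobase, of Lin28a and Lin28b and of Igf2bp1, Igf2bp2 and Igf2bp3 in each of the 16 libraries, stacked within each family. In WT at EB8 the Lin28 bars are short (1200.0 and 821.4) with a larger Lin28b part, and the 3 Igf2bp parts are nearly even, while Igf2bp1 keeps over 50% of the Taf4a-/- EB8 bars (57.1% and 53.4%).

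Trim71 (ENSMUSG00000079259, chr9:114420393-114473487, minus strand, protein coding), also known as Lin41 and a classical let-7 target, was higher in Taf4a-/- cells at EB8, as Lin28a was. Its WT values were 3857.3 and 3070.3 normalised counts in ES cells, 4157.0 and 6547.4 at EB4, 4020.9 and 5119.5 at EB5 and 1525.8 and 1488.6 at EB8. Its Taf4a-/- values were 3991.4 and 4577.8, 6521.2 and 4940.0, 5420.3 and 3681.9, and 4328.9 and 2189.1. The genotypes overlapped at EB4 and EB5, and both Taf4a-/- libraries were above both WT libraries in ES cells, by little, and at EB8, by unequal amounts.

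In WT, Trim71 fell 3.03-fold by means from EB5 to EB8 (log2 change -1.59, SE 0.31, adjusted p = 0.00764), a call lost without EB5 replicate 2 (-1.42) or EB8 replicate 2 (-1.57). It fell 2.3-fold from ES to EB8 (-1.19, SE 0.31, adjusted p = 0.00835), a call lost without ES replicate 1 (-1.03) and kept without ES replicate 2 (-1.36). At EB8 it was 2.16-fold higher in Taf4a-/- cells (1.03, SE 0.31, 95% interval 0.35 to 1.71, adjusted p = 0.0335). This held in 10 of 12 other analyses (adjusted p 0.00553 to 0.075) and was lost without WT EB8 replicate 1 (1.05), WT EB8 replicate 2 (1.01) or Taf4a-/- EB8 replicate 1 (0.54). The EB5 to EB8 change differed between genotypes by 1.05 (adjusted p = 0.451), which was not called.

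Hmga2 (ENSMUSG00000056758, chr10:119798331-119913525, minus strand, protein coding) ran the other way in time, low early and high at EB8 in both genotypes. WT libraries had 2782.4 and 1014.9 normalised counts in ES cells, 1576.0 and 1539.8 at EB4, 2541.6 and 4245.4 at EB5 and 6907.7 and 7120.3 at EB8. Taf4a-/- libraries had 922.3 and 636.1, 656.6 and 532.2, 1461.0 and 886.3, and 2558.5 and 6131.5. Each Taf4a-/- library was below both WT libraries of its stage, and Taf4a-/- EB8 replicate 2 came close to WT.

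Hmga2 rose 3.69-fold by means from ES to EB8 in WT (log2 change 2.06, SE 0.47, adjusted p = 0.00367) and 5.58-fold in Taf4a-/- cells (2.37, SE 0.47, adjusted p = 0.00233). The WT change was 2.79 without WT ES replicate 1 and 1.33 without WT ES replicate 2, so its size rests on which ES library is used, and it passed either way. The genotype changes at EB4 (-1.40, adjusted p = 0.101), EB5 (-1.53, adjusted p = 0.0889) and EB8 (-0.82, SE 0.47, adjusted p = 0.234) were not called. The EB8 change was -0.19 without Taf4a-/- EB8 replicate 1 and -1.45 without replicate 2. Hmga2 has as many let-7 matches as Lin28b, and its WT values at EB8 were above its EB5 values in both libraries, where those of Lin28b were below. An opposite-strand lincRNA, 1700006J14Rik, overlaps Hmga2 exons and had 0.0 to 13.2 normalised counts.

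The 3 Igf2bp genes behaved differently from each other. Igf2bp1 had the highest level and the narrowest range, Igf2bp2 rose in WT to its highest values at EB8, and Igf2bp3 rose in WT by EB4. Only Igf2bp2 was called between genotypes, and at EB8 alone.

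Igf2bp1 (ENSMUSG00000013415, chr11:95818477-95867254, minus strand, protein coding) ranged from 12301.1 normalised counts in WT EB8 replicate 1 to 23288.5 in WT ES replicate 1. At EB8 it was at 12301.1 and 13354.3 in the WT libraries and at 16557.1 and 13083.3 in the Taf4a-/- libraries, which overlapped (log2 change 0.20, SE 0.25, adjusted p = 0.603). Its unadjusted p was above 0.05 in all 14 comparisons of genotype, stage and interaction by limma with all 16 libraries, though its ES to EB8 change in WT passed without WT ES replicate 2. The level of chromosome 11 genes was taken as their median (log2, against the average library), less the median of all autosomal genes. It was 0.17 to 0.26 in Taf4a-/- replicate 1 at the 4 stages, against -0.13 to 0.05 in the other 12 libraries. The part of this in the Igf2bp1 values was not tested.

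Igf2bp2 (ENSMUSG00000033581, chr16:22059082-22163372, minus strand, protein coding) had 1358.9 and 3882.0 normalised counts in WT ES cells, 6478.3 and 4346.0 at EB4, 6794.0 and 6399.9 at EB5 and 9834.3 and 8356.9 at EB8. Taf4a-/- cells had 2795.1 and 3302.7 in ES cells, 5856.4 and 6148.5 at EB4, 5188.0 and 4582.7 at EB5 and 4433.4 and 4257.8 at EB8. The genotypes overlapped in ES cells and at EB4, and both Taf4a-/- libraries were below both WT libraries at EB5 and EB8.

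In WT, Igf2bp2 rose 3.47-fold by means from ES to EB8 (log2 change 1.98, SE 0.35, adjusted p = 0.000741), and the change was 1.22 without WT ES replicate 1 and 2.74 without replicate 2, both past the threshold. The rise to EB4 (1.21, SE 0.35, adjusted p = 0.036) was lost without WT ES replicate 1 (0.45), WT EB4 replicate 1 (0.92) or WT EB4 replicate 2 (1.5), and was 1.96 without WT ES replicate 2. At EB8 the WT mean was 2.09-fold above the Taf4a-/- mean (-1.06, SE 0.35, adjusted p = 0.0478), but this passed in only 4 of 12 other analyses (adjusted p 0.0087 to 0.077) and was lost without any 1 of its 4 libraries (-1.18 to -0.94). The ES to EB8 change differed between genotypes by -1.46 (adjusted p = 0.0943), and by -2.22 without WT ES replicate 2 (adjusted p = 0.00641).

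Igf2bp3 (ENSMUSG00000029814, chr6:49035220-49164953, minus strand, protein coding) had 2544.8 and 1645.6 normalised counts in WT ES cells, 3831.5 and 4459.7 at EB4, 4218.5 and 5569.7 at EB5 and 4986.0 and 4572.8 at EB8. Taf4a-/- cells had 2522.0 and 1940.5, 2542.1 and 2178.4, 3736.5 and 1994.6, and 2877.2 and 2534.2. Both Taf4a-/- libraries were below both WT libraries at each EB stage. In WT it rose from ES to EB4 (log2 change 1.01, SE 0.28, adjusted p = 0.0301) and from ES to EB8 (1.22, SE 0.28, adjusted p = 0.00388), the second being 0.91 without WT ES replicate 2 (adjusted p = 0.0421) and the first being lost without WT ES replicate 2 (0.70), WT EB4 replicate 1 (1.12) or WT EB4 replicate 2 (0.90).

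The genotype change of Igf2bp3 was -0.81 at EB4 (adjusted p = 0.109), -0.83 at EB5 (adjusted p = 0.12) and -0.82 at EB8 (SE 0.28, adjusted p = 0.0546), and none was called. The EB5 value was -1.28, and past the threshold, without Taf4a-/- EB5 replicate 1 (adjusted p = 0.0349) and -0.38 without replicate 2. At EB8 it passed in 4 of 12 other analyses (adjusted p 0.0183 to 0.096). An overlapping protein-coding gene on the opposite strand, 2410003K15Rik, had 300.3 to 518.0 normalised counts, and reads of the 2 genes cannot be told apart where their exons overlap.

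As shares of the family level per kilobase, Igf2bp1 went from 75.6% and 60.2% in WT ES cells to 33.5% and 38.3% in WT at EB8. Igf2bp2 went from 6.0% and 23.5% to 36.3% and 32.5%, and Igf2bp3 was at 30.2% and 29.2% in WT at EB8. In Taf4a-/- cells at EB8 the shares were 57.1% and 53.4% for Igf2bp1, 20.8% and 23.6% for Igf2bp2 and 22.1% and 23.0% for Igf2bp3. The even mix of the WT EB8 libraries was thus not seen in the Taf4a-/- EB8 libraries.

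Mycn (ENSMUSG00000037169, chr12:12942902-12948720, minus strand, protein coding), the MYC family member of ES cells and neural progenitors, had the largest called genotype difference of the set at EB8. WT libraries had 9850.7 and 5879.2 normalised counts in ES cells, 3134.5 and 3067.8 at EB4, 1768.1 and 2367.6 at EB5 and 3503.2 and 4026.5 at EB8. Taf4a-/- libraries had 10400.9 and 6509.6, 5108.8 and 3301.4, 1649.7 and 764.1, and 1277.7 and 972.6. WT values were lowest at EB5. At EB8 both WT libraries stood above both of their EB5 values, and the Taf4a-/- libraries did not.

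At EB8 the WT mean of Mycn was 3.35-fold above the Taf4a-/- mean (log2 change -1.75, SE 0.37, adjusted p = 0.00528). This was past the threshold in all 12 other analyses (adjusted p 6.88e-05 to 0.00908) and in all 4 fits that left out a library. The neural progenitor sum was lower in the same 2 Taf4a-/- libraries, and its part in the Mycn difference was not tested. The WT rise from EB5 to EB8 was not called (0.88, adjusted p = 0.161). It passed in 1 of 12 other analyses (adjusted p 0.0358 to 0.237), the limma fit with a term for replicate number within genotype.

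Mycn fell 2.09-fold from ES to EB8 in WT (log2 change -1.02, SE 0.37, adjusted p = 0.0377) and 7.52-fold in Taf4a-/- cells (-2.88, SE 0.37, adjusted p = 0.000175). The WT call was lost without WT ES replicate 1 (-0.65), WT EB8 replicate 1 (-0.92) or WT EB8 replicate 2 (-1.12), and was -1.39 without WT ES replicate 2. The difference between the changes was -1.86 (95% interval -2.99 to -0.73, adjusted p = 0.0498), which held in 7 of 12 other analyses (adjusted p 0.00749 to 0.0775). Without WT ES replicate 1 it was -2.24 and passed, and without any 1 of the other 7 libraries it did not pass (-1.49 without WT ES replicate 2). Mycn also fell from ES to EB4 in WT (-1.29, SE 0.37, adjusted p = 0.032, lost without WT ES replicate 1 at -0.92, WT EB4 replicate 1 at -1.31 or WT EB4 replicate 2 at -1.28, and -1.67 without WT ES replicate 2). It fell from EB4 to EB5 in Taf4a-/- cells (-1.87, SE 0.37, adjusted p = 0.0191, lost without EB4 replicate 1 at -1.56 or EB5 replicate 2 at -1.32).

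Myc (ENSMUSG00000022346, chr15:61816946-61821929, plus strand, protein coding) had the widest spread between libraries of 1 group. WT values were 2476.6 and 460.0 normalised counts in ES cells, 408.8 and 417.1 at EB4, 738.7 and 1539.6 at EB5 and 845.3 and 530.4 at EB8. Taf4a-/- values were 1233.6 and 1594.5, 643.7 and 456.9, 491.1 and 191.0, and 329.2 and 236.5. WT ES replicate 2, the WT library with few Y-linked reads, was the low one of the WT ES pair. Without it, the WT change of Myc from ES to EB4 and to EB8 passed the threshold.

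Myc fell from ES to EB8 in Taf4a-/- cells (log2 change -2.33, SE 0.65, adjusted p = 0.0148), a call lost without ES replicate 2 (-2.14) or EB8 replicate 2 (-2.09). The genotype changes at EB5 (-1.80, adjusted p = 0.14) and EB8 (-1.26, SE 0.65, adjusted p = 0.188) were not called, although both Taf4a-/- libraries were below both WT libraries at those stages. Per kilobase of exon, Mycn made up 55.9% to 91.3% of the summed level of Myc and Mycn in the 16 libraries, so it was the more abundant of the pair in each library.

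Plag1 (ENSMUSG00000003282, chr4:3828143-3865570, minus strand, protein coding) was the least abundant member and the zinc finger factor of the set. WT libraries had 213.0 and 224.0 normalised counts in ES cells, 1271.3 and 1136.6 at EB4, 1049.2 and 846.7 at EB5 and 790.7 and 951.8 at EB8. Taf4a-/- libraries had 243.2 and 198.0, 472.0 and 430.1, 567.9 and 528.5, and 464.2 and 480.4. The genotypes overlapped in ES cells, and at each EB stage both Taf4a-/- libraries were below both WT libraries.

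From ES to EB4, Plag1 rose 5.51-fold in WT (log2 change 2.45, SE 0.20, adjusted p = 0.000302) and 2.04-fold in Taf4a-/- cells (1.03, SE 0.20, adjusted p = 0.0207), the second call being lost without any 1 of its 4 libraries (0.89 to 1.18). The WT rise was 2.49 without WT ES replicate 2. By EB8 the rise was 1.98 in WT (SE 0.20, adjusted p = 1.26e-05, and 2.02 without WT ES replicate 2) and 1.10 in Taf4a-/- cells (SE 0.20, adjusted p = 0.0012). The ES to EB8 changes differed by -0.88 (adjusted p = 0.0737), which was not called (-0.92 without WT ES replicate 2).

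Between genotypes, WT means of Plag1 were 2.67-fold higher at EB4 (log2 change -1.41, SE 0.20, adjusted p = 0.00516), 1.73-fold at EB5 (-0.78, SE 0.20, adjusted p = 0.0451) and 1.84-fold at EB8 (-0.88, SE 0.20, adjusted p = 0.00769). The EB4 call passed in 10 of 11 other analyses (adjusted p 6.68e-11 to 0.141) and was lost without Taf4a-/- EB4 replicate 2 (-1.35). The EB5 call passed in 9 of 12 (adjusted p 0.00109 to 0.122) and was lost without any 1 of its libraries (-0.94 to -0.63). The EB8 call passed in all 12 (adjusted p 4.37e-05 to 0.0403) and was lost without WT EB8 replicate 2 (-0.74).

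The wider network of these genes was described with 5 lists that hold 50 genes in all, each of them tested. In ES cells limma called 0 of the 50 between genotypes, with 9 at an unadjusted p under 0.05, and edgeR called 0 and DESeq2 3. Of all 16124 genes limma and edgeR called 0 there and DESeq2 called 469. At EB8, 3 of 50 were higher and 13 lower, while 10.4% and 12.5% of all genes were. Of the 50, 21 rose and 16 fell from ES to EB8 in WT, where 24.0% of all genes rose and 22.8% fell, and 15 rose and 15 fell in Taf4a-/- cells, where 19.7% rose and 18.0% fell. Without WT ES replicate 2 the WT counts were 18 and 17, with 33 of the 37 calls kept (Mxd1, E2f5, Mga and Trrap were lost) and no change of sign. No called member or list gene changed sign at EB8 under TMM, upper-quartile or quantile scaling, edgeR or DESeq2.

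The let-7 and microRNA biogenesis list holds the nuclear and cytoplasmic processing enzymes, the Argonaute genes and the uridylases that act with LIN28. At EB8, 2 of 12 were lower in Taf4a-/- cells, and the median log2 change was -0.18, against -0.03 for all genes. Eif2c1, now named Ago1, an effector of microRNA repression, was at 7993.5 and 8550.7 in the WT libraries against 3108.2 and 3616.5 normalised counts in the Taf4a-/- libraries at EB8 (-1.30, adjusted p = 0.000111). Prkra, a partner of Dicer, had 1105.8 and 1138.2 against 547.6 and 534.8 (-1.05, adjusted p = 0.0106), a call that held without WT EB8 replicate 1 and was lost without any 1 of the other 3 libraries (-1.07 to -1.03 over the 4 fits). Over the ES to EB8 interval, 6 rose and 2 fell in WT (median 0.50, and 6 and 3 with a median of 0.46 without WT ES replicate 2) and 5 rose and 3 fell in Taf4a-/- cells (median -0.08), next to medians of 0.01 and 0.02 for all genes. Zcchc11, the uridylase recruited by LIN28A, rose in WT (1.10, adjusted p = 0.000787, and 1.40 without WT ES replicate 2) and in Taf4a-/- cells (1.46, adjusted p = 0.000241).

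Of 8 let-7 targets outside the members, 2 were higher and 3 lower in Taf4a-/- cells at EB8, with a median of -0.53. Nr6a1, a nuclear receptor also known as GCNF that represses Oct4, was at 3366.7 and 2208.6 in the WT libraries against 9970.4 and 6790.9 normalised counts in the Taf4a-/- libraries (1.59, adjusted p = 0.000691). Arid3b, an AT-rich DNA-binding protein, had 890.5 and 985.7 against 2619.7 and 1837.5 (1.23, adjusted p = 0.00181). Both were higher in both Taf4a-/- libraries, as were Lin28a and Trim71, and both calls held without each of the 4 libraries. Igf1r, the IGF1 receptor, was lower (-1.07, adjusted p = 0.0158, lost without WT EB8 replicate 2, Taf4a-/- EB8 replicate 1 or replicate 2, -1.18 to -0.95). Nras (-0.68, adjusted p = 0.0262) lost its call without any 1 of the 4 libraries (-0.76 to -0.61) and under upper-quartile scaling. Over ES to EB8, 2 rose and 1 fell in each genotype, with medians of 0.11 in WT (-0.07, with 1 up and 2 down, without WT ES replicate 2) and -0.04 in Taf4a-/- cells.

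In the MYC and MAX network, 4 of 12 genes were lower in Taf4a-/- cells at EB8, with a median of -0.29. Mycl1, the third MYC family gene, was at 4199.4 and 5810.6 in the WT libraries against 570.8 and 674.3 normalised counts in the Taf4a-/- libraries at EB8 (-2.99, adjusted p = 0.000151), and it had risen from ES to EB8 in WT (2.66, adjusted p = 7.47e-05, and 3.20 without WT ES replicate 2). Mxi1, an antagonist that pairs with MAX, had 1734.8 and 2409.8 against 858.8 and 564.6 (-1.55, adjusted p = 0.00489, lost without WT EB8 replicate 2). Mxd3 (-1.09, adjusted p = 0.0231) held only without WT EB8 replicate 1 among the 4 fits without a library (-1.5 to -0.67), and Zbtb17 (-0.79, adjusted p = 0.0416) held in none of them (weakest at -0.57). Max itself, the shared partner, was 0.08 (adjusted p = 0.742). In the ES to EB8 interval, 6 rose and 3 fell in WT (median 0.60, and 4 and 2 without WT ES replicate 2), and 2 rose and 2 fell in Taf4a-/- cells (median -0.02).

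The MYC target list of 11 genes, mostly nucleolar and biosynthetic, had most of its members lower after differentiation in both genotypes. Between ES and EB8, 9 fell and 1 rose in WT (median -1.11, and the same counts with -1.37 without WT ES replicate 2), and 8 fell in Taf4a-/- cells (median -1.29). Odc1, the first enzyme of polyamine synthesis, fell in WT (-1.58, adjusted p = 7.78e-05, and -1.82 without WT ES replicate 2) and in Taf4a-/- cells (-1.35, adjusted p = 0.000434), as did the nucleolar gene Bop1 (-1.97, adjusted p = 6.03e-05, or -2.27 without that library, and -1.77, adjusted p = 0.000268). The one that rose in WT was the cyclin gene Ccnd2 (6.32, adjusted p = 8.53e-06, and 5.66 without WT ES replicate 2). At EB8 the genotype median was -0.07, with 2 lower, which were Ccnd2, at 40499.8 and 31206.3 in the WT libraries against 1863.2 and 2700.4 normalised counts in the Taf4a-/- libraries (-3.99, adjusted p = 0.000665), and Ldha (-0.95, adjusted p = 0.0294, lost without WT EB8 replicate 2 or Taf4a-/- EB8 replicate 2, -1.49 to -0.42). The list's median turned to 0.07 under upper-quartile scaling and 0.13 under quantile normalisation.

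Among the 7 relatives of Plag1 and Hmga2 and genes of the Igf2 axis, 6 rose and 1, Hmga1, fell from ES to EB8 in both genotypes (medians 3.24 in WT, or 3.38 with the same counts without WT ES replicate 2, and 2.54 in Taf4a-/- cells). Igf2, a known target of PLAG1 and IGF2BP proteins, rose in WT (4.21, adjusted p = 9.27e-05, and 3.80 without WT ES replicate 2) and in Taf4a-/- cells (6.60, adjusted p = 1.5e-05). At EB8 it was at 24926.6 and 35455.2 in the WT libraries and at 65188.2 and 35051.7 normalised counts in the Taf4a-/- libraries, which overlapped (0.69, adjusted p = 0.407). H19, the imprinted neighbour of Igf2, had 29986.1 and 21487.8 against 85490.8 and 37097 (1.15, adjusted p = 0.047), a call that held only without Taf4a-/- EB8 replicate 2 (0.55 to 1.75 over the 4 fits). The Plag1 relatives were both lower at EB8 in Taf4a-/- cells. Plagl1 had 11319.2 and 7548 against 1417 and 3417.3 (-2.07, adjusted p = 0.0102, lost without WT EB8 replicate 1 or Taf4a-/- EB8 replicate 1), and Plagl2 had 4478.7 and 3816.9 against 1695.5 and 1777.9 (-1.25, adjusted p = 0.00301, held in all 4). With Plag1, all 3 genes of the family were lower at EB8 in Taf4a-/- cells, and all 3 kept this direction under the other scalings.

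Within the members, log2 values over the 16 libraries gave Pearson correlations from -0.68 (Trim71 and Hmga2) to 0.81 (Lin28b and Igf2bp3, and Igf2bp3 and Plag1). Lin28a and Trim71 were at 0.79, Trim71 and Igf2bp1 at 0.77, Myc and Mycn at 0.74 and Igf2bp2 and Plag1 at 0.74. These are descriptions over 16 points that share stage, genotype and line. Among the members, the highest correlation of Lin28b was with Igf2bp3, not with Lin28a.

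Over all tested genes, profiles like those of 9 members were found by the same correlation over 16 libraries, and the most alike is given for each. For Lin28a it was H2-Q6 (0.936), for Lin28b Fmnl2 (0.944), for Trim71 Klhl21 (0.957), for Hmga2 Kirrel3 (0.948) and for Igf2bp1 Mettl16 (0.878). For Igf2bp2 it was BC042782 (0.903), for Myc Wrb (0.903), for Mycn Cfl1 (0.940) and for Plag1 Cdkn1b (0.961). Next on the list for Trim71 was Sall4 (0.907), a zinc finger gene of ES cells, and for Plag1 Smad4 (0.958).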

How the data were processed

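The authors aligned single-end 54-base reads of poly-A TruSeq libraries (Illumina GAIIx, CASAVA 1.7 or 1.8) to mm9 (NCBI37) with TopHat2 2.0.10, counted reads per gene with HTSeq 0.5.4p3 and divided them by DESeq2 1.0.19 size factors. The deposited values are this normalised signal. The annotation release and strand setting are not given in the sources used here. Whole reads were recovered for 100.0% of values (tolerance 0.01 of a step). Depths and counting error are given with the results.

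limma 3.58.1 (R 4.3.3) was fitted to log2(value + 1) with 8 group means, all 16 libraries, and eBayes with trend (residual df 8, prior df 4.27). Genes with a mean of at least 10 were tested, 16124 of 27807. Alternatives were pseudocounts 0.1 and 5, no filter or a mean of 50, TMM, upper-quartile and quantile scaling, only the compared groups, replicate blocks, edgeR 4.0.16 and DESeq2 1.42.0 on recovered reads, and each library left out. On simulated data for EB8 (16124 genes), 183 of 200 changed genes were recovered with 16 false calls. How far these counts hold for the member calls in the measured libraries was not tested. All members, the genes of 5 lists and, for each member, the most correlated genes are the ones named; the members and lists were chosen with earlier results of these data known. A few results for single genes are not reported here. Older symbols (Eif2c1, Zcchc11, Mycl1) are those of the table. Gene positions and 3′UTRs are from GENCODE M1 (NCBI37) and microRNAs from RefSeq. Python 3.11.15 was used for figures and sequences.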

Additional observations from a re-analysis of the deposited data

Results flagged for a closer look

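The change of Mycn from ES to EB8 differed between the genotypes by -1.86 on the log2 scale (adjusted p = 0.0498), and the test of that difference is what singled it out. The adjusted p ran from 0.00749 to 0.0775 over 12 other analyses. No cause was tested.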

How the results depend on the processing

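Of 1046 alternative values of 63 single-gene results, 924 kept direction and side of the threshold, 92 were no longer past it, 28 newly passed it and 2 reversed, both for the Plag1 difference of the EB5 to EB8 change (-0.09, and 0.06 without WT EB5 replicate 2 and 0.04 without WT EB8 replicate 2, in a leave-one-out range of -0.25 to 0.06). A result not called in the main fit counted as kept when it stayed uncalled. The 92 values therefore fall on called results alone, and 924 of 1046 is not the rate at which calls held. The number of all tested genes called also moved with the setting. Between genotypes at EB4 it was 986, against 0 with only the compared groups and 2077 with DESeq2. At EB5 it was 700, against 72 and 1719. In WT from ES to EB4 it was 2668, against 0 and 3911. At EB8 it was 3697, against 3064 and 4626, although more members were called with only the compared groups (7 against 5). A moved member count is thus not shown to be particular to the members. Counts of called members moved as follows, and the cause was not tested. Between genotypes at EB4 (1), the count was 0 with only the compared groups, 3 with DESeq2 and 0 to 1 with a library left out. At EB5 (2) it was 1 with pseudocount 0.1 and with edgeR, 0 with no filter, upper-quartile scaling or only the compared groups, 5 with DESeq2 and 0 to 3 with a library left out. At EB8 (5) it was 3 with pseudocount 0.1 and edgeR, 2 with no filter, 7 with only the compared groups (Trim71 lost, Lin28b, Igf2bp3 and Myc gained), 6 with DESeq2 and 1 to 3 with a library left out. In WT from ES to EB4 (4) it was 1 with no filter, 0 with only the compared groups and 1 to 4 with a library left out, from EB5 to EB8 (2) it was 1 to 2, and from ES to EB8 (7) it was 5 to 9. In Taf4a-/- cells from ES to EB4 (1) it was 0 with only the compared groups, 2 with a replicate block within genotype and 0 with any library left out. From EB4 to EB5 (1) it was 0 with only the compared groups and 0 to 1 with a library left out, from EB5 to EB8 (0) it was 1 with DESeq2, and from ES to EB8 (5) it was 4 to 5. The ES to EB8 difference (1) gave 0 with pseudocount 0.1, no filter, upper-quartile scaling and edgeR, 2 with DESeq2 and 0 to 2 with a library left out. The EB5 to EB8 difference (0) gave 1, Lin28a, with pseudocount 5, TMM, quantile scaling, DESeq2, the replicate block and the block within genotype, and 0 to 1 with a library left out. Where 1 library was left, it was assumed to vary like the other groups.

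At the EB stages the replicate numbers did not pair the samples between genotypes. Deviations of same-numbered libraries correlated there at -0.058 at EB4, -0.209 at EB5 and -0.133 at EB8. In ES cells they correlated at 0.335 between genotypes. Those of WT ES correlated with those of Taf4a-/- EB4, EB5 and EB8 at 0.281, 0.368 and 0.056. Within a genotype the deviations correlated at 0.233 to 0.422 in Taf4a-/- cells and 0.523 to 0.605 among WT EB stages, but at -0.179 to -0.048 between WT ES and WT EB libraries. With the replicate block the EB5 genotype change of Lin28a passed (adjusted p = 0.0283), and with the block within genotype the WT rise of Mycn from EB5 to EB8 did (0.88, adjusted p = 0.0358, against 0.161 without it and 0.0358 to 0.237 over 12 other analyses). Exchanging the Taf4a-/- numbers at EB5 and EB8 was tried after seeing the data.

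Upper-quartile scaling moved the median of all genes to 0.11 between genotypes at EB8 and to -0.17 for WT from ES to EB8. At EB8, 45.4% of called genes were higher in the main scaling, 58.4% after upper-quartile and 55.9% after quantile scaling. The share was 55.7% against 45.7% (quantile) for WT from EB5 to EB8, and 58% against 69% (TMM) for Taf4a-/- cells over that interval. For the ES to EB8 difference it was 52.8% against 42.4% (TMM) and 63.7% (upper-quartile), and for the EB5 to EB8 difference 12.7% against 26.2% (quantile). With 2 libraries a group, WT ES replicate 2 apart from the other WT libraries and cell make-up that differed at EB8, calls near the threshold rest on single libraries.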
